A study of Rattus norvegicus with 16 samples.

Results

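The transcripts described here are 10 genes of the NF-kB inflammatory programme in rat whole blood: the cytokine Tnf, the chemokines Cxcl2, Ccl3 and Ccl4, the inhibitors Nfkbia and Tnfaip3, the NF-kB subunits Nfkb1, Nfkb2 and Relb, and the adhesion molecule Icam1. They were taken by symbol alone, and each symbol had 1 entry. These are 10 of the 18031 genes that every count file listed, and of 26405 genes listed in at least 1 file. All 16 libraries belong to a single group, the saline controls. The animals were adult male Sprague-Dawley rats of 85 to 90 days, given 4 injections of saline at 1 ml/kg, 2 h apart, and sacrificed 3 h after the last. Blood was drawn from the heart by needle, globin mRNA was depleted, and stranded libraries of polyadenylated RNA were sequenced. No treated animals were compared.

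NF-kB is a family of dimeric transcription factors held inactive in the cytoplasm by IkB proteins. Signals from Toll-like, interleukin-1 and TNF receptors activate a kinase complex that marks the IkB proteins for degradation, and the freed dimers enter the nucleus and switch on cytokine, chemokine and adhesion genes. The same dimers switch on their own inhibitors, Nfkbia (IkB-alpha) and Tnfaip3 (A20), and some of their own subunits, which gives the response its negative feedback. In blood, neutrophils and monocytes are the cells best known for rapid induction of these genes.

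Libraries held 21466776 to 31189549 estimated counts. Levels below are normalized counts, that is, counts divided by a size factor per library, and the smallest detectable amount, taken as 3 counts, corresponded to 2.06 to 4.67 normalized counts. Genes were not compared with each other in level, since counts depend on transcript length. All 11 neutrophil, 8 T-cell and 8 NK-cell markers, 6 of 7 B-cell and erythroid markers and 9 of 10 monocyte markers were listed. The monocyte gene Ms4a7 was near 0 (mean 0.647). Being listed does not test the label of whole blood, since all 5 liver and all 5 cardiac muscle markers were listed too. RNA of other tissues stood out in a few libraries. Alb, the liver albumin gene, reached 330254 in control 2 and 11403 in control 8 against a median of 17.5. Control 12 had the highest thymus and fat marker levels, and control 10 the highest cardiac muscle level.

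NF-kB dimers bind a short DNA motif, kappaB, and promoter sequence is shown for the 4 members whose windows hold it before the start site. RefSeq promoters of build GRCr8, 250 bases before to 50 bases after each start site, were found for 7 of the 10 members (Relb, Ccl3 and Ccl4 had no entry). On either strand, the kappaB consensus occurred in 5 of 7 members and in 7.51% of all 33469 promoters. The narrower form, GGG followed by 2 bases of any kind and TTTCC, overlaps it and occurred in 5 of 7 members and in 1.53% of all promoters. No match lay in the windows of Tnf and Icam1, and the match in Nfkb1 began 4 bases after the start. The 120 bases just before the start are printed 5′ to 3′ on the strand of the gene, with matches to either form, on either strand, in capitals.
Nfkbia (chr6:78597073-78597192, minus strand): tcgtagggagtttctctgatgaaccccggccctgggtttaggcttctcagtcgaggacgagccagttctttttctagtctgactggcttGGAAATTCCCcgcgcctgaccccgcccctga
Tnfaip3 (chr1:15543980-15544099, minus strand): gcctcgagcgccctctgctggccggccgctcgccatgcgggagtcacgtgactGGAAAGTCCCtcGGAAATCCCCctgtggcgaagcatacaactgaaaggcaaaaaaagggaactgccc
Nfkb2 (chr1:255108254-255108373, plus strand): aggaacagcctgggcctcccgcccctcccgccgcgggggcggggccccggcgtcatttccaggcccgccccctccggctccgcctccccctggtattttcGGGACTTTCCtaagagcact
Cxcl2 (chr14:17467256-17467375, minus strand): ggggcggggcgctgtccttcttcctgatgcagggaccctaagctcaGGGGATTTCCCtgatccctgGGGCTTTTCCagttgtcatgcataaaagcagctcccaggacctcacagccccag
The match in Nfkbia lay 31 to 22 bases before the start and that in Nfkb2 20 to 11 bases before it. Tnfaip3 held a pair of matches, at 67 to 58 and 55 to 46 bases, and a further one at 170 to 161 bases, upstream of the stretch shown. Cxcl2 held overlapping matches at 74 to 64 bases and another at 54 to 45 bases. A match is a string of letters and does not show that a factor binds there.

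The secreted ligands differed widely in how much they varied. Tnf, which activates NF-kB and is itself an NF-kB target, averaged 825 ± 993 normalized counts (SD, n = 16). It ran from 113 in control 6 through a median of 477 to 3347 in control 8, with control 14 close behind at 3157 and control 9 next at 1046. The range was 29.6-fold, and controls 8 and 14 stood apart from the other 14 libraries. Cxcl2, a chemoattractant for neutrophils, averaged 43.3 ± 71.4 (SD, n = 16) with a median of 9.19. It was highest in control 8 (253), followed by controls 11 (137) and 1 (128), and no count was found in controls 5 and 6. Against the 3-count floor of control 6, the level in control 8 was at least 95.4-fold higher. Control 14, high for Tnf, reached only 39.0 for Cxcl2.

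Ccl3 and Ccl4 encode the macrophage inflammatory proteins, which attract monocytes and other leukocytes. Ccl3 averaged 361 ± 215 (SD, n = 16), from 180 in control 7 through a median of 275 to 885 in control 1. The high libraries for Ccl3 were controls 1, 8 (816) and 14 (608), and the next value was 364 in control 3. Ccl4 averaged 34.1 ± 9.18 (SD, n = 16), from 15.9 in control 6 through a median of 35.2 to 53.0 in control 14. Its range was 3.33-fold, and control 8, with 33.7, was below the median. Ccl4 was the member with the smallest coefficient of variation, 26.9%.

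The inhibitors varied over similar ranges, 7.05-fold for Nfkbia and 7.06-fold for Tnfaip3. Nfkbia, the IkB protein that NF-kB induces to return its own dimers to the cytoplasm, averaged 3459 ± 2415 (SD, n = 16). It ran from 1232 in control 4 through a median of 2571 to 8689 in control 8, with 8212 in control 14 and 6965 in control 15. Tnfaip3, a ubiquitin-editing enzyme that ends signalling upstream of the kinase complex, averaged 459 ± 381 (SD, n = 16). It ran from 209 in control 2 through a median of 301 to 1473 in control 14, with 1292 in control 8 and 710.5 in control 15. The same 3 libraries were therefore highest for both inhibitors, and for Tnfaip3 controls 8 and 14 were well clear of the rest.

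The subunits did not vary to a like extent. Nfkb1, which encodes p105 and its product p50, averaged 2174 ± 606 (SD, n = 16), from 1456 in control 2 through a median of 2124 to 3500 in control 8, a 2.40-fold range. Nfkb2, which encodes p100 and its product p52, averaged 1618 ± 2048 (SD, n = 16). It ran from 528 in control 10 through a median of 834 to 7213 in control 8 and 6383 in control 14, while control 15, the next highest, had 1696. Relb, the partner of p52 in the alternative pathway, averaged 360 ± 348 (SD, n = 16), from 128 in control 3 through a median of 224 to 1347 in control 8. Control 14 had 1057 for Relb and control 15 had 505. For all 3 subunits controls 8, 14 and 15 were the highest, in that order. Nfkb1 formed a graded series, whereas Nfkb2 had a gap between control 14 and the rest.

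Icam1, an adhesion molecule that leukocyte integrins bind, averaged 335 ± 191 (SD, n = 16). It ran from 166 in control 7 through a median of 270 to 797 in control 8, with 699 in control 14 and 545 in control 15. The order of the top libraries was again 8, 14 and 15.

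**Figure D1:**
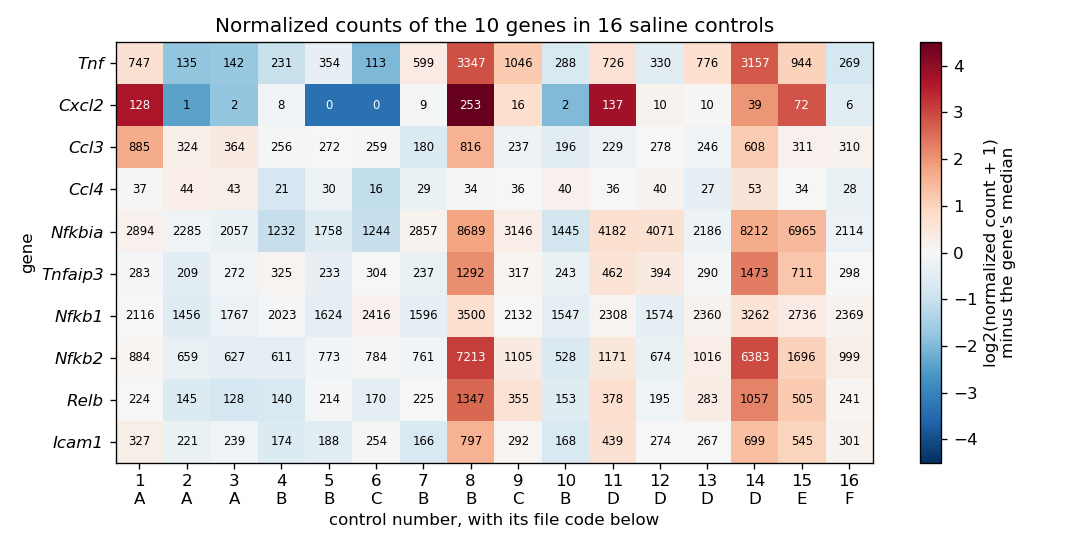
Normalized counts of the 10 genes (rows) in the 16 saline controls (columns, with the file code of each library). Color is the log2(normalized count + 1) minus the gene's median over the libraries, and the columns of controls 8 and 14 are dark for Tnf, Tnfaip3, Nfkb2 and Relb, while Ccl4 stays pale except in controls 4 and 6.

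The coefficient of variation (SD over mean across libraries) put most members among the more variable genes of the blood. Among 12531 genes averaging at least 10 normalized counts, the median was 29.1%, with quartiles of 20.4% and 44.7%. Of the 10 members, 8 lay above that median and 5 in the top 10 percent of genes. Cxcl2 had 165%, Nfkb2 127%, Tnf 120%, Relb 96.6% and Tnfaip3 83.1%. Nfkbia had 69.8%, Ccl3 59.5% and Icam1 57.0%, whereas Nfkb1 had 27.9% and Ccl4 26.9%, both a little below the median gene. Against genes of similar mean level only, Ccl4 lay at percentile 14.7 and Nfkb1 at 50.4. The other members lay between 91.9 (Nfkbia) and 98.3 (Tnf). Without controls 8 and 14, a selection made after the data were seen, the coefficient fell from 127% to 34.9% for Nfkb2, to 45.1% for Relb, to 39.4% for Tnfaip3 and to 66.5% for Tnf. The coefficient was then 167% for Cxcl2, with controls 1, 11 and 15 still high, and 55.6% for Ccl3, with control 1 still high.

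Control 8 was the highest library for 7 of the 10 genes and among the top pair for 9, and control 14 was among the top 3 for 9. Control 15 was among the top 3 for 6. Controls 2, 4 and 10 were each among the lowest 3 for 5 genes. By the 95% Poisson intervals of their counts, which cover counting error only, the highest and second highest libraries did not overlap for Nfkbia, Tnfaip3, Nfkb2, Relb and Cxcl2. They overlapped for Tnf, Nfkb1, Icam1, Ccl3 and Ccl4. The shares of all genes with such ranks or intervals were not computed, so these counts describe the members only and show no excess over other genes. The neutrophil marker level was also highest in these libraries, at 12.98 in control 8 and 12.65 in control 14 on the log2 scale against a median of 10.51. Control 8 also had the lowest T-cell and B-cell marker levels and the second highest liver and platelet levels. Control 14 had the highest NK-cell level, 9.99 against a median of 9.39, and a liver level of 1.87, below the median of 2.88. Control 2 had the highest liver level, 15.07, with the lowest Tnfaip3 and Nfkb1 of all libraries and the second highest Ccl4 (43.9). The relation of the members to the liver level was not tested. Fewer cells of a type and less RNA per cell cannot be told apart in whole blood, and the part of cell composition in the levels of controls 8 and 14 was not tested beyond the relations given below.

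The levels of most members varied together across animals. Of the 45 pairs, 44 had a positive Pearson r of log2(normalized count + 1), with a median of 0.73 and a range from -0.07 to 0.97. The closest pair was Nfkb2 with Relb (r = 0.97, Spearman rho = 0.95, n = 16), and leaving out controls 8 and 14 gave 0.95. Tnf followed Relb (r = 0.92) and Tnfaip3 followed Nfkb2 (r = 0.93), and without controls 8 and 14 these were 0.84 and 0.72. The 28 pairs that hold neither Ccl3 nor Ccl4 had a median of 0.84, which was 0.70 without controls 8 and 14 and 0.85 after centering within file codes. Pairs with Ccl3 had a median of 0.55, which was 0.14 without those libraries, 0.67 without control 1 and 0.83 after centering within file codes. Pairs with Ccl4 had a median of 0.30, and the lowest was that with Nfkb1 (r = -0.07). These pairs are a description of 16 libraries that share depth and cell composition, and no test was made on them.

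**Figure D2:**
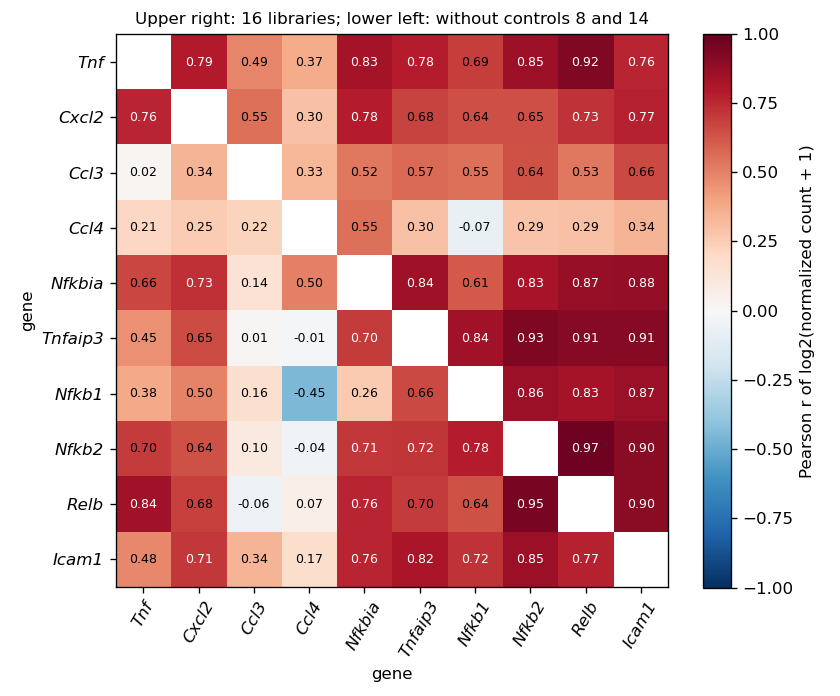
Pearson r of log2(normalized count + 1) for every pair of the 10 genes, over 16 libraries above the diagonal and without controls 8 and 14 below it. The pairs among Nfkbia, Tnfaip3, Nfkb2, Relb and Icam1 lie between 0.83 and 0.97 above the diagonal, while below the diagonal the values of Ccl3 lie between -0.06 and 0.34.

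The study asked how stable control blood is over repeats of the experiment, but the labels place no library in a repeat. The libraries were therefore compared by a code in the names of the files, whose meaning the labels do not give. Codes with at least 3 libraries were A (controls 1 to 3), B (controls 4, 5, 7, 8 and 10) and D (controls 11 to 14), so controls 6, 9, 15 and 16 were in no such comparison. The number of genes listed also differed, with 19356 in controls 1 to 3, 20141 or 26405 in controls 4 to 10 and 18677 in controls 11 to 16. The median log2 fold change from A to D was 0.81 over the 10 genes and -0.01 over all genes, and the median of the 10 was 0.36 without control 14 and 1.27 without control 1. Tnf averaged 341 ± 352 in A (SD, n = 3), 964 ± 1339 in B (SD, n = 5) and 1247 ± 1289 in D (SD, n = 4). Nfkbia averaged 2412 ± 433, 3196 ± 3134 and 4663 ± 2537 in the same order. Ccl3 went the other way, with 524 ± 313, 344 ± 267 and 340 ± 180. Its log2 fold change was -0.64 from A to B and -0.64 from A to D. Without control 1, which had 885, these were -0.01 and -0.02. The ranges of these 3 genes overlapped between codes. For Tnfaip3 every library of D (290 to 1473) was above every library of A (209 to 283). It was the only member without overlap in any of the 3 comparisons, where 3.5% of all genes were higher without overlap in D than in A and 3.56% lower. The shares were 4.75% higher and 1.59% lower in B than in A, and 0.591% higher and 5.47% lower in D than in B.

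In edgeR's quasi-likelihood test, adjusted over 12952 genes by the Benjamini-Hochberg method, 0 of the 10 members passed 0.05 in any comparison of codes. Of all genes, 0% were called between A and B, 0% between A and D, and 2.3% between B and D. At an unadjusted p under 0.05 the count of members was also 0 in each comparison. Of all genes, 13.5% had such a p between A and B, 5.41% between A and D and 11.3% between B and D. DESeq2 called 0 of the 8 members it tested, with 2 at an unadjusted p under 0.05, both for A against D (Tnfaip3 and Relb). In that comparison 4.29% of all genes had such a p in DESeq2. The largest estimates were those from A to D: the log2 fold change (± SE) was 1.85 ± 1.10 for Tnf (edgeR adjusted p = 0.92), 1.66 ± 1.04 for Nfkb2 and 1.52 ± 0.84 for Relb. Without control 14 these were 0.85, 0.41 and 0.79, and without control 1 the estimate for Tnf was 3.17. Standard errors of this size leave several-fold differences undetected. Without control 8, 7 members had an unadjusted p under 0.05 for B against D, as did 11.4% of all genes. Icam1 led the members with a log2 fold change of 1.27 ± 0.29 and an edgeR adjusted p of 0.057 (0.057 to 1 over the alternatives). Still 0 members passed after adjustment. Without control 14 the count at an unadjusted p under 0.05 was 0 (9.73% of all genes), and the median of the members for B against D went from 0.31 to -0.15. Scaling to total counts shifted the median of all genes for B against D from 0.04 to 0.53, and that of the members for A against B changed sign, from 0.32 to -0.24.

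**Figure D3:**
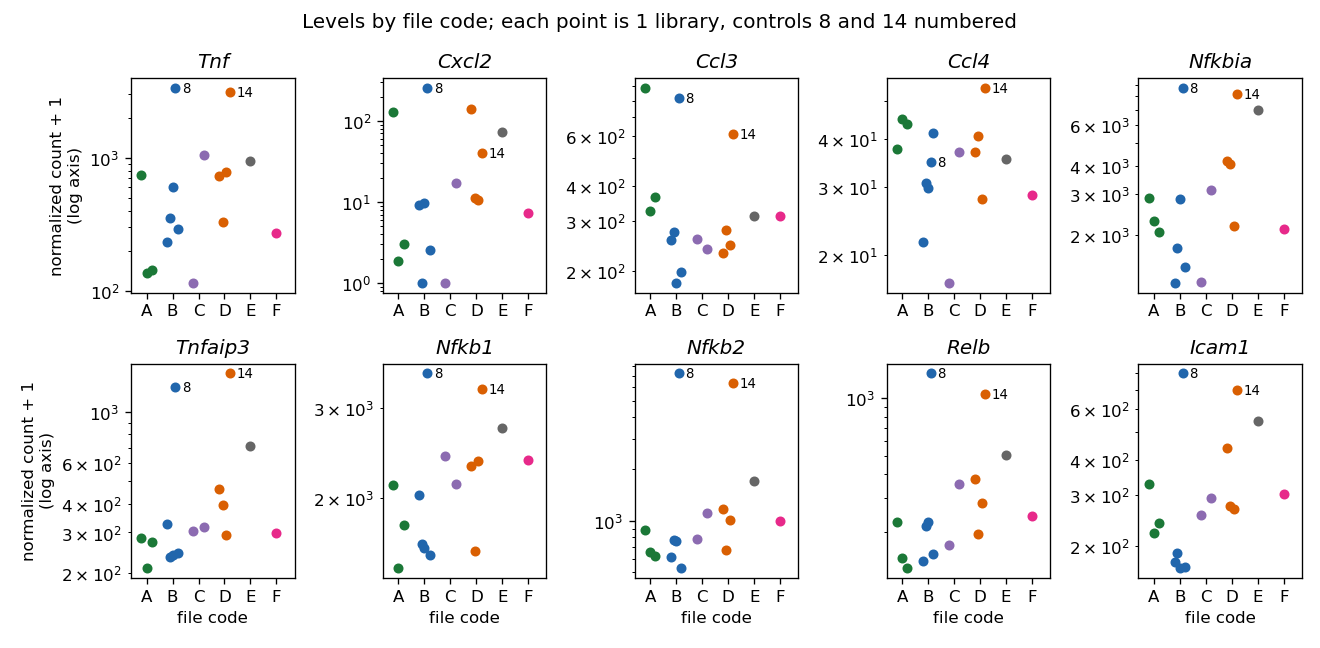
Normalized count + 1 of each gene (log axis, its own scale per gene) by file code, with each point a library and controls 8 and 14 numbered. In code B control 8 is far above the other 4 libraries for 9 genes, whereas for Ccl4 it lies within them, and codes A and D overlap for every gene but Tnfaip3.

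The levels of cell markers were compared with those of the members over the 16 libraries, since blood samples can differ in cell composition. In all, 8 such families of relations were computed, 6 with marker levels and 2 with a gene as the reference. A marker level is the mean log2 level of a list of genes typical of a cell type. Of all genes, 13.6% rose with the neutrophil level and 8.53% fell with it at an adjusted p under 0.05 (permutation test, two-sided, adjusted over 12531 genes). Of the 10 members, 7 rose with it and 0 fell, and without control 8 the count was 4, with 9.9% of all genes rising. The median r was 0.71 for the members and -0.07 for all genes. Summed neutrophil markers ran from 35923 normalized counts to 1180120 in control 8, with 637814 in control 14. S100a8, an abundant neutrophil gene, ran from 8348 to 382335, and the granule genes Camp (6354), Ngp (1271), Lcn2 (40143) and Elane (220) were also highest in control 8. All of these are among the 11 genes of the marker level. Lcn2 was 34711 in control 14, against a median of 202, and the level was not rebuilt without it. Mpo, another granule gene of the list, went the other way, at 0 in control 8 and 3.00 in control 14. Its mean was 7.65 and its highest value 45.4, in control 4. The maturity of the neutrophils was not tested.

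Tnf was the closest to the neutrophil level (r = 0.97, rho = 0.97, permutation p = 1e-05 for each, the smallest that 100000 permutations can give). Its adjusted permutation p was 0.00029, and 0.00027 to 0.0033 over the alternatives. The relation held without controls 8 and 14, which were the farthest from the median of the marker level (r = 0.94), and within file codes (r = 0.96). Relb was next (r = 0.88, rho = 0.88, permutation p = 1e-05 for each), with an adjusted permutation p of 0.00029, and 0.00027 to 0.013 over the alternatives. Without those libraries its r was 0.79, and within file codes 0.87. Both genes kept their call in each of the 24 alternatives run.

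For 5 further members the call was lost without controls 8 and 14, where 9.42% of all genes still rose with the neutrophil level. By Spearman's rho 5 of the 10 members passed, and Tnfaip3 and Icam1 did not (adjusted permutation p = 0.15 and 0.11). Of all genes, 13% rose with the level by rho. Nfkbia had r = 0.81 (permutation p = 1e-04, adjusted 0.0017) and rho = 0.77 (permutation p = 0.00074). Nfkb2 had r = 0.79 (permutation p = 9e-05, adjusted 0.0016) and rho = 0.76 (permutation p = 0.001). Without those libraries r was 0.65 and 0.62, and within file codes 0.86 and 0.78. Tnfaip3 had r = 0.72 (permutation p = 0.00093, adjusted 0.0086) and rho = 0.51 (permutation p = 0.046). Cxcl2 had r = 0.70 (permutation p = 0.0027, adjusted 0.019) and rho = 0.73 (permutation p = 0.0019). Icam1 had r = 0.66 (permutation p = 0.0054, adjusted 0.030) and rho = 0.55 (permutation p = 0.030). The latter 3 fell to 0.41, 0.60 and 0.34 without controls 8 and 14, and were 0.64, 0.72 and 0.72 within file codes, where Tnfaip3 and Cxcl2 also lost the call.

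Nfkb1 (r = 0.59, rho = 0.49, permutation p = 0.017 for r, adjusted 0.068) missed the threshold. Ccl4 (r = 0.35, rho = 0.08) and Ccl3 (r = 0.33, rho = 0.03) had adjusted permutation p = 0.36 and 0.38. For Ccl3 the value was 0.64 within file codes and -0.19 without controls 8 and 14.

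**Figure D4:**
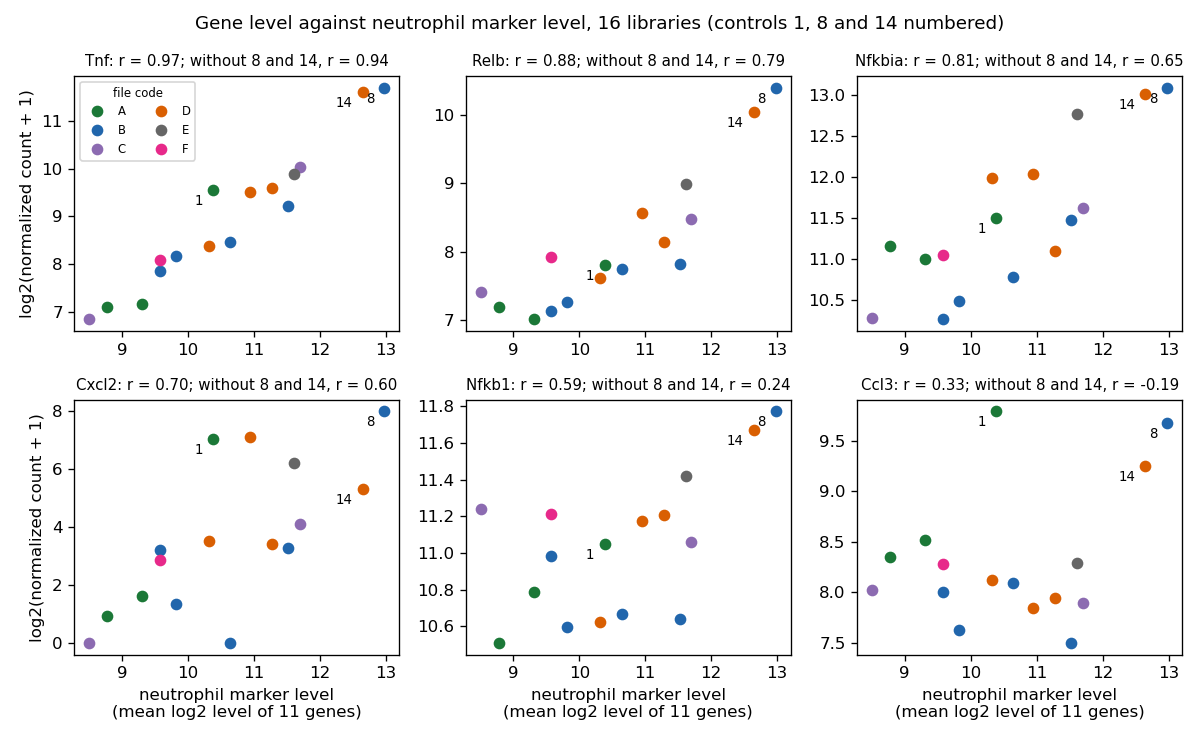
Level of 6 genes, as log2(normalized count + 1), against the neutrophil marker level (mean log2 level of 11 genes) in 16 libraries colored by file code, with controls 1, 8 and 14 numbered. Tnf follows the marker level over its whole range from 8.51 to 12.98, whereas Ccl3 is high in controls 1, 8 and 14 (r = -0.19 without controls 8 and 14).

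The other marker levels gave no calls among the members. For the monocyte level 0 of 10 passed, where 0% of all genes did in either direction, and 5 had an unadjusted permutation p under 0.05. The share of all genes at an unadjusted p is not given for the marker levels, so the unadjusted counts show no excess among the members. The r ran from 0.33 (Ccl4) to 0.60 (Icam1). For the T-cell level 0 of 10 passed (5.33% of all genes rose and 4.38% fell with it) and 5 did so unadjusted, with r from -0.66 (Nfkb1 and Relb) to 0.27 (Ccl4). The count that passed was 4 without control 6, where 11.6% of all genes fell with this level. It was 3 without control 14 (5.06% of all genes) and 1 without control 7 (2.13%). For the B-cell level 0 of 10 passed (1.93% of all genes rose and 0.71% fell) and 5 did so unadjusted, with r from -0.72 (Tnf, permutation p = 0.0017, adjusted 0.053) to -0.15 (Ccl4). The count that passed was 3 without control 4, where 9.21% of all genes fell with this level, and 2 without control 13 (5.08%). The neutrophil level itself was lower where the B-cell level (r = -0.73) and the T-cell level (r = -0.56) were higher, so these relations are not independent.

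Ccl4, which NK cells are known to secrete, had the highest value of the members with the NK-cell level (r = 0.49, permutation p = 0.057, adjusted 0.92; rho = 0.58, permutation p = 0.022). For that level 0 of 10 passed (0.0798% of all genes rose and 0% fell), and 0 did so unadjusted. For the erythroid level 0 of 10 passed (6.78% of all genes rose and 0.112% fell), again with 0 unadjusted, and all values were below 0.

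**Figure D5:**
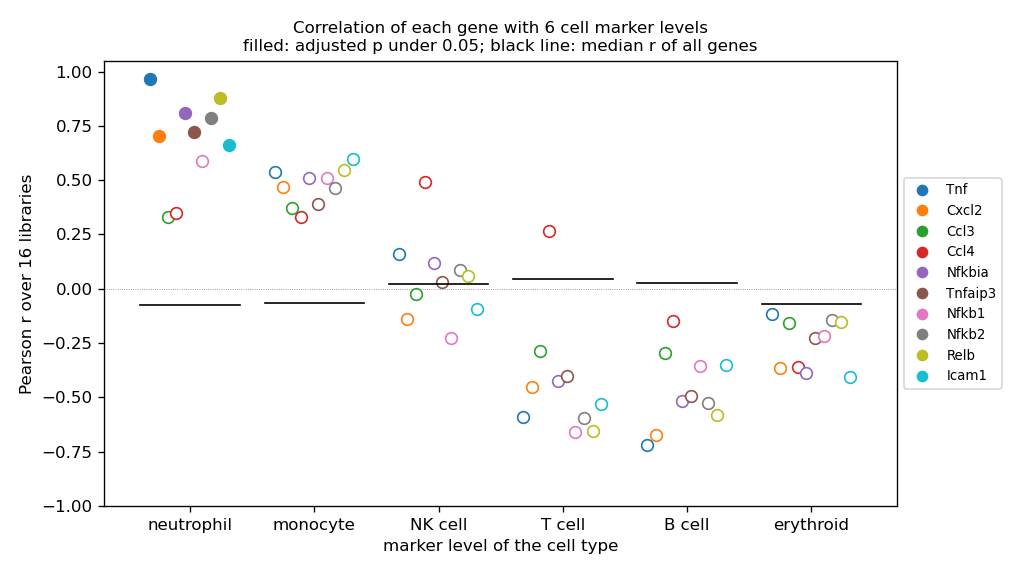
Pearson r of each gene with the marker level of 6 cell types over 16 libraries. Filled points have an adjusted permutation p under 0.05, and the black line is the median r of all genes. All 7 filled points lie in the neutrophil column, between 0.66 and 0.97, and the T-cell and B-cell columns lie mostly below 0.

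The feedback gene Nfkbia was then used as the reference for the other genes. Of all genes 7.39% rose with Nfkbia and 1.71% fell (permutation test, adjusted over 12530 genes). Of the other 9 members, 6 rose with it and 0 fell. Without control 8 only Relb rose with it, as did 0.176% of all genes. The median r was 0.83, against -0.06 over all genes. Icam1 (r = 0.88), Relb (r = 0.87), Tnfaip3 (r = 0.84), Tnf (r = 0.83), Nfkb2 (r = 0.83) and Cxcl2 (r = 0.78) passed, with permutation p from 2e-05 to 0.00046 and adjusted permutation p from 0.0086 to 0.017. Their Spearman rho was 0.79, 0.80, 0.61, 0.79, 0.76 and 0.84, with permutation p from 7e-05 to 0.013, and by rho Tnfaip3 did not pass (adjusted permutation p = 0.10). Nfkb1 (r = 0.61), Ccl4 (r = 0.55) and Ccl3 (r = 0.52) had adjusted permutation p = 0.091, 0.13 and 0.16. No member and no other gene passed when controls 8 and 14, farthest from the Nfkbia median, were left out. The values were then 0.76 for Icam1 and Relb, 0.73 for Cxcl2, 0.71 for Nfkb2, 0.70 for Tnfaip3, 0.66 for Tnf and 0.14 for Ccl3. Within file codes the 6 values were 0.72 to 0.91, with permutation p from 0.0024 to 0.015. After adjustment 0 members passed there, as did 0% of all genes.

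Removing the neutrophil level by regression, an alternative added after the data were seen, left 0 members called. Of all genes, 0% were then called with Nfkbia in either direction. Icam1 then had r = 0.78 (permutation p = 0.00049, adjusted 0.40) and Tnfaip3 0.64 with Nfkbia, while Tnf had 0.31. Over all alternatives of the relation of Icam1 to Nfkbia, this regression included, the adjusted permutation p ran from 0.0022 to 0.40. With Ccl3 as the reference, 0 of 9 members passed, as did 0% of all genes, and r ran from 0.33 (Ccl4) to 0.66 (Icam1). Unadjusted, 7 of these relations had a permutation p under 0.05 by Pearson r and 1 by Spearman's rho. The share of all genes at such a p is not given, so these counts show no excess among the members.

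Further genes of the pathway were read against Nfkbia in the same test, where 7.39% of all genes rose with it and 1.71% fell. Of 7 further subunits and IkB proteins, 4 rose with it and 0 fell (median r = 0.72). These included the nuclear IkB protein Nfkbiz (r = 0.92, adjusted permutation p = 0.0086), Nfkbie (r = 0.85, adjusted permutation p = 0.0096) and Bcl3 (r = 0.80, adjusted permutation p = 0.013). Nfkbib, another IkB protein, had r = -0.40, and the subunit Rel had r = 0.12. Of 11 measured negative regulators 7 rose (median r = 0.71), led by the RNase Zc3h12a (r = 0.85), Tnip1, a partner of A20 (r = 0.81), and Zfp36, which destabilizes cytokine mRNA (r = 0.72). Itch and Tax1bp1 had r = 0.25 and 0.33. Of 22 signalling genes 3 rose (median r = 0.29). Those were the kinase Map3k8 (r = 0.87), the ubiquitin ligase Birc3 (r = 0.85) and the adaptor Myd88 (r = 0.70), and the lowest were Tab1 (r = -0.65) and Traf5 (r = -0.61), which did not pass.

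Of 8 receptors 4 rose (median r = 0.64), led by Tlr2 (r = 0.76) and the TNF receptors Tnfrsf1a (r = 0.69) and Tnfrsf1b (r = 0.69). The B-cell receptors Tnfrsf13c and Cd40 had r = -0.38 and -0.19. Of 22 measured further inflammatory targets 10 rose (median r = 0.62), led by the stress gene Gadd45b (r = 0.87), the cytokine Ltb (r = 0.86) and the chemokine Cxcl10 (r = 0.85). The lymphocyte cytokine Lta had r = -0.37 and the maturation marker Cd83 had r = -0.20. Of 6 measured receptors of the chemokines and ligands of Icam1, 2 rose, Ccr1 (r = 0.69) and Cxcr2 (r = 0.69), the latter also a neutrophil marker here. The integrin subunits Itgam and Itgal had r = 0.63 and 0.47. Of 9 immediate early genes 3 rose, Junb (r = 0.72), Dusp1 (r = 0.71) and Jun (r = 0.69), whereas Egr1 had r = 0.12 and Nr4a1 had -0.21. Against the neutrophil level 4, 7, 8, 6, 12, 3 and 3 genes of these lists rose, in the order given, and 2 fell, both signalling genes (Traf5 with r = -0.80 and Tab1 with r = -0.68). Of all genes 13.6% rose with that level and 8.53% fell, and Cxcr2, among the receptors that rose, is 1 of the 11 genes the level was made from. None of the calls with Nfkbia held without controls 8 and 14.

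The genes most like each member, by Pearson r of log2 levels over 16 libraries among genes with a mean of at least 50 normalized counts, are given as a description. Tnf was closest to Marcks (r = 0.98), Alpl (r = 0.97), the alkaline phosphatase of mature neutrophils, and Nos2 (r = 0.97), the inducible nitric oxide synthase. Relb was closest to the kinase Mapkapk2, Ralgds and Itpkc (r = 0.97 each), and Nfkb2 to Vasp (r = 0.98), Mapkapk2 (r = 0.98) and Tnip1 (r = 0.97). Tnfaip3 was closest to Itpkc (r = 0.93), Saal1 and Agtrap (r = 0.91 each). Nfkbia was closest to Marveld1 (r = 0.93), Nfkbiz (r = 0.92) and the death receptor Fas (r = 0.91). Icam1 was closest to Agtrap (r = 0.93), Slc25a24 and Nfkbie (r = 0.91 each), and Nfkb1 to Hivep1 (r = 0.94), Mvp (r = 0.93) and Spag9 (r = 0.90).

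Cxcl2 was closest to Ric8a, Dab2 (r = 0.91 each) and Rnf185 (r = 0.90). The likeness was lower for the remaining chemokines, at 0.80 for Ccl3 with Htra2, 0.78 with Brf2 and 0.74 with Otub1, and at 0.76 for Ccl4 with Snx4 and 0.75 with PSME2 and Spcs2. Mapkapk2, Itpkc and Agtrap were each among the closest genes of a pair of members, and no gene recurred for the chemokines. Leaving out controls 8 and 14 gave r between 0.60 and 0.98 for the genes named here.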

How the data were processed

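Whole blood RNA of 16 saline-treated rats was sequenced as paired ends. The authors clipped the reads and aligned them with Bowtie 0.12.9 to rat transcripts of Ensembl release 70 (build rn5). The deposited values are estimated counts of each gene made with RSEM 1.2.0. These expected counts are not normalized, and in a library 19.3% to 27.1% of them were fractional, so all were rounded to whole numbers for this work. RSEM divides reads that fit several genes, which may affect similar chemokine genes. Files differ in the genes they list, for a reason not stated, so only genes present in all of them were used. These held at least 99.99% of each library's counts.

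Normalized counts were counts divided by DESeq2 size factors, and log2 levels used a pseudocount of 1. File codes were compared with edgeR 4.0.16 in R 4.3.3 (TMM scaling, filterByExpr, quasi-likelihood F-test, 12 libraries in one fit). The main test of the study, DESeq2 (here 1.42.0), served as an alternative. Relations used Pearson r with two-sided permutation tests of 100000 permutations over genes with a mean of at least 10 normalized counts. Adjustment followed Benjamini and Hochberg over all genes tested, at a threshold of 0.05. Within file codes, levels were centered and permuted inside each code over the 14 libraries of codes with more than 1 library. The study counts its controls as rats, and p-values measure the spread between these samples, which may in part be technical.

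The members, gene lists and tests were chosen with earlier results of these data known. All members are named. From each pathway list up to 3 genes with the highest and 2 with the lowest r with Nfkbia are named, and for each member the 3 genes of the highest r. A gene that this rule names is not reported here. The scripts were tested on simulated data. Promoters came from RefSeq (GRCr8), a build other than that of the counts, and no genome was used. Python 3.11.15 was used with scipy 1.17.1, numpy 2.4.6, matplotlib 3.10.9 and pandas 2.3.3. Intervals and floors cover counting error only.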

Additional observations from a re-analysis of the deposited data

Results flagged for a closer look

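Within file codes B (n = 5) and D (n = 4), the gap between the highest or lowest library and its neighbour was divided by the whole range and compared with Dixon's 95% critical value. Of 20 groups examined, 13 exceeded it. Chance flags about 1 in 20 groups of normally distributed values, but among all 12531 genes the share was 10.7% in code B and 9.84% in code D. The groups share libraries, so these results are not independent.

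In code B, control 8 was the library that stood apart, as the highest, for 9 members and for 4.25% of all genes. The ratio was 0.965 for Icam1 and Cxcl2, 0.963 for Nfkb2, 0.930 for Relb and 0.913 for Tnfaip3. It was 0.882 for Tnf, 0.854 for Ccl3, 0.782 for Nfkbia and 0.756 for Nfkb1. Icam1, for example, was 797 in control 8 and 166 to 188 in the other 4 libraries of the code. For Ccl4 control 8 did not stand apart.

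In code D, control 14 stood apart for Nfkb2 (0.913), Ccl3 (0.872), Tnfaip3 (0.855) and Tnf (0.842), against 1.13% of all genes. Nfkb2 was 6383 there and 674 to 1171 in the other 3 libraries of the code. Both libraries had the highest neutrophil marker levels of all 16, and what part that has in these values was not tested for each gene.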

How the results depend on the processing

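The 0 members called between file codes held under the other scalings, without a filter on low counts, with DESeq2 and without each library in turn. The count of all genes called for B against D, 298 in edgeR, was less steady. It was 764 in DESeq2, 6 with scaling to total counts, as low as 2 without control 11 or 14, and higher without control 4. Between A and B edgeR called 0 genes, DESeq2 567, and edgeR without control 4 called 506. Between A and D the counts were 0 in edgeR and 8 in DESeq2. Counts of members related to a marker level or gene moved by more than 1.5 times as follows. Without the 2 farthest libraries, which were controls 8 and 14, the count fell from 7 to 2 for the neutrophil level and from 6 to 0 for Nfkbia, and leaving out controls 8 and 14 by name, added after the data were seen, gave the same 2 and 0. Centering within file codes and removing the neutrophil level (the latter added later) gave 0 for Nfkbia, and the cause was not tested. In each of these settings 0% of all genes were called with Nfkbia. Of all genes, 9.42% rose with the neutrophil level when controls 8 and 14 were left out. Scaling to total counts gave 2 members for the monocyte level (Nfkb1 and Icam1), where 8.29% of all genes rose with it. The same scaling gave 1 member for the T-cell level (Ccl4), where 43.3% of all genes rose with it. With 1 library left out the count ran from 4 (without control 8) to 8 for the neutrophil level, from 0 to 4 (without control 6) for the T-cell level, from 0 to 3 (without control 4) for the B-cell level and from 1 (without control 8) to 7 for Nfkbia. It was 3 without control 14 and 1 without control 7 for the T-cell level, and 2 without control 13 for the B-cell level. The share of all genes falling with the T-cell level went from 4.38% to 11.6% without control 6. For the B-cell level that share went from 0.71% to 9.21% without control 4. The share rising with the neutrophil level was 9.9% without control 8. It was 13.1% without control 6 and 12.7% without control 7, the settings that gave 8 members. With Nfkbia the share rising was 0.176% without control 8 and 8.81% without control 12, which gave 7 members. No result changed direction past its threshold. Of the values for single genes under the alternatives, 2295 kept their side of the threshold, 49 lost a call and 20 gained one. No paired analysis was possible because all libraries belong to one group. Levels near the floor of 3 counts, as for Cxcl2 in 5 libraries, limit the relations of that gene.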
